A study of Drosophila melanogaster with 4 samples.

Results

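Broad domains of acetylated lysine 27 on histone H3 (H3K27ac) were taken from chromatin of adult fly heads, as clusters of the first ChIP replicate that were at least 10 kb wide and had at least 50% of their bases inside clusters of the second replicate. All 535 clusters of that width met the overlap, so the domains were 535 of the 5898 clusters of replicate 1, or 9.07%. Their summed width was 8.67 Mb. The overlap removed no cluster of replicate 1, and the lowest shared part of any domain was 74.4% of its bases.

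The libraries came from head nuclei of Drosophila melanogaster of the wild-type strain Oregon-R-modENCODE, raised in population cages and labelled as mixed adults. There were 2 H3K27ac ChIP libraries, made with an Active Motif antibody, and 2 input libraries of sheared chromatin. Each input was named in the labels as the background for the cluster list of the same replicate number. No mutation, transgene or treatment was given for any library, and sex is not stated. Nothing in the labels says that the replicates were separate fly collections, so the spread between them may be technical. Read depth is unknown, and the 95% Wilson intervals given here cover counting error only. The lists carry positions without gene names, so the tissue could not be checked against marker genes. A head holds many cell types, and a domain in fewer cells cannot be told apart from a weaker one in more cells.

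H3K27ac is laid down by acetyltransferases of the CBP/p300 family and marks active promoters and enhancers. The same lysine carries trimethylation where Polycomb proteins act, and a single histone tail cannot hold both marks there. In many animals most H3K27ac lies in short peaks, while some active loci carry it over long continuous stretches that can take in promoters, gene bodies and several enhancers. Long stretches of this kind are known in mammalian cells around genes that define a cell type. The domains described here were chosen by width alone, and no such role was assigned to them.

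The domains held 31.4% of all bases under clusters of replicate 1, and 30.7% with the replicates exchanged, that is, for the 530 clusters of replicate 2 that met the same rule against replicate 1. Widths ran from 10014 to 64422 bp, with a median of 13884 bp and quartiles of 11706 and 18583.5 bp. Clusters under 10 kb numbered 5363 in replicate 1 and had a median width of 2855 bp. Most domains were thus close to the width limit, with 166 of them under 12000 bp, 129 from 12000 to under 15000 bp, 136 from 15000 to under 20000 bp, 87 from 20000 to under 30000 bp and 17 of 30000 bp or more. The domains nearest the limit were 10014 bp on the X from 13707589, 10043 bp on 3R from 1142817 and 10057 bp on 3L from 2872432, with scores in replicate 1 of 1.60, 0.67 and 1.02. Just below it lay clusters of 9999 bp on the X from 682761, 9980 bp on the X from 11241355 and 9976 bp on 3L from 3074972, with scores of 1.26, 1.37 and 1.49. The scores of these regions inside and outside the limit overlapped.

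Width and overlap chose the domains, and score, edges and breaks come from the same calls against input. All values are therefore descriptions without a test, and differences are set only against the spread between the replicates. Coordinates are on release 5 of the fly genome, counted from 1.

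Broad domains were densest on the X. The X held 134 of the 535 domains (25%), against 18.2% of all clusters of replicate 1. Per Mb of sequence there were 6.09 ± 0.16 domains on the X (SD, n = 2, from the domains of replicate 1 and those with the replicates exchanged). The arms of chromosome 2 had densities of 3.61 ± 0.12 (2L) and 3.81 ± 0.17 (2R), and those of chromosome 3 had 4.26 ± 0.14 (3L) and 4.32 ± 0.18 (3R). The gap between the X and each of these arms was larger than the spread between replicates, while 3L and 3R differed by less than that spread. The small chromosome 4, which is largely heterochromatic, had 6 domains in replicate 1 and 7 with the replicates exchanged, or 4.81 ± 0.52 per Mb. In the separately assembled heterochromatin there was 1 domain, on 3LHet from 204591 to 220617. It measured 16027 bp and scored 0.98 in replicate 1 and 1.18 in replicate 2.

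In replicate 1 the X had 1.47 times the domain density of the 4 autosome arms, and with the replicates exchanged the ratio was 1.56. For clusters under 10 kb the same ratio was 0.94 and 0.99. The excess on the X did not begin at the 10 kb limit. By width class the ratio was 0.94 ± 0.06 below 2000 bp, 0.86 ± 0.04 from 2000 bp and 0.95 ± 0.01 from 3000 bp (SD, n = 2). From 5000 to under 10000 bp it was 1.15 in replicate 1 and 1.25 in replicate 2. In the narrowest domains, of 10000 to under 12000 bp, it was 1.05 in replicate 1 and 1.36 with the replicates exchanged, which does not stand apart from the class below. From 12000 to under 15000 bp the ratio was 1.36 ± 0.13, and from 15000 to under 20000 bp 1.56 ± 0.08. From 20000 to under 30000 bp it was 2.21 ± 0.02 (SD, n = 2). Cumulative ratios, which take in the widest domains, were 1.66 ± 0.01 for all domains of at least 12000 bp and 1.85 ± 0.07 for at least 15000 bp. For at least 20000 bp the cumulative ratio was 2.23 ± 0.02. In replicate 1 the X had 35 domains of at least 20000 bp, and the autosome arms together had 68. At 30000 bp or more it rested on 6 domains on the X and 11 on the autosome arms. Domains covered 10.4% ± 0.22 of the X and 6.43% ± 0.09 of the autosome arms, and clusters under 10 kb covered 16.2% ± 0.68 and 15.7% ± 0.16. The median width of domains was 15332.5 bp on the X and 13750 bp on the autosome arms, where arm medians ran from 13374 bp on 2R to 14170 bp on 3R. Scores were also higher on the X, in domains and in narrower clusters alike, as given with the scores. The part that this overall score difference plays in the count of broad calls was not tested.

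**Figure D1:**
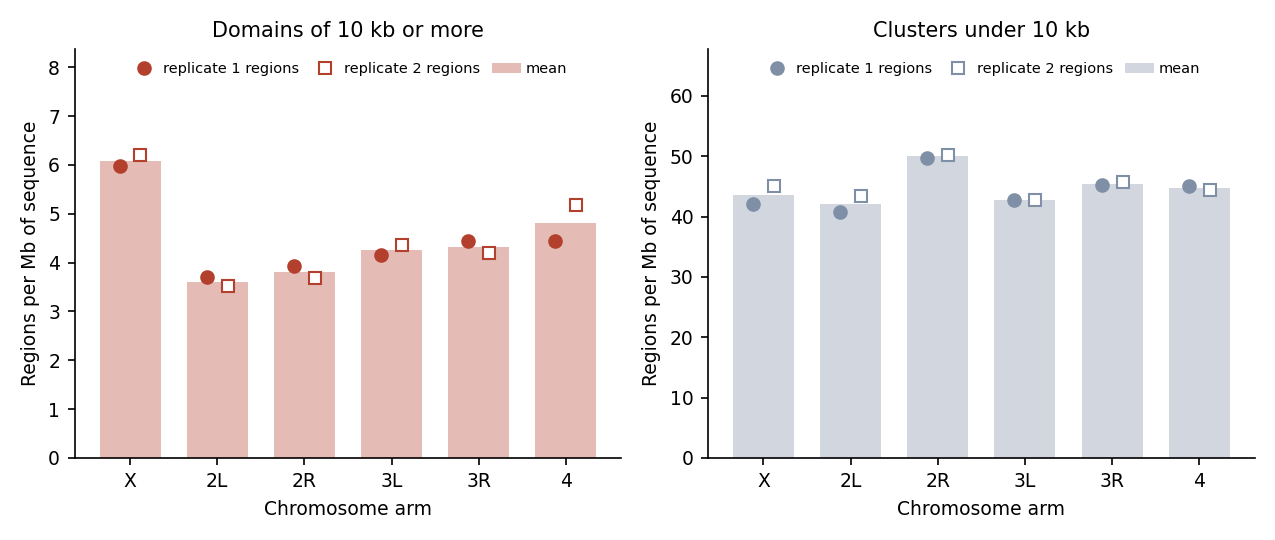
Regions per Mb of sequence on each chromosome arm (y axis), for domains of 10 kb or more (left) and clusters under 10 kb (right); circles are regions of replicate 1, squares regions of replicate 2 and bars their mean. The X lies at 6.09 domains per Mb, above all 5 other arms, and at 43.5 narrower clusters per Mb, within the range of the other arms.

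Per Mb, domains were sparse at the centromere end of the assembled sequence on 4 of the 5 major arms, and not on 3R. Distance was counted from the end of the arm sequence, so separately assembled heterochromatin is not in these bins. There, 3RHet held 0 domains in replicate 1 and with the replicates exchanged. It had 7 clusters under 10 kb in replicate 1 and 9 in replicate 2. In the 1 Mb nearest the centromere end there were 4 domains over all 5 arms, or 0.80 per Mb, and all 4 lay on 3R. On the 3R arm sequence the density was 4.00 per Mb both in the nearest 1 Mb and in the next, against 3.33 per Mb from 2 to 5 Mb. Those stretches of 3R were also rich in clusters under 10 kb, with 58 in the nearest 1 Mb and 69 in the next. As a share of clusters, domains on 3R were thus 6.45% and 5.48% there, below the 7.5% to 11.4% in its bins farther out. Over all 5 arms the nearest windows held 117 clusters under 10 kb, or 23.4 per Mb, and 58 of these were on 3R. From 1 to 2 Mb the 5 arms together had 2.20 domains per Mb and from 2 to 5 Mb 3.67 per Mb. Farther out the density was 5.00 from 5 to 10 Mb, 4.84 from 10 to 15 Mb, 5.04 from 15 to 20 Mb and 4.52 beyond 20 Mb. Clusters under 10 kb had 46.2 per Mb already at 2 to 5 Mb and 43.6 to 46.8 per Mb from there on. Domains were thus 3.31% of clusters in the nearest 1 Mb, 5.56% in the next and 7.35% from 2 to 5 Mb, against 8.80% to 10.3% in the bins farther out. Counting in windows of 1 Mb, 6 of 117 full windows held no domain, and the median was 4. The empty windows lay on 2R from 1 to 1000000, on 2L from 11000001, 15000001 and 22000001, and on 3L from 6000001 and 23000001. With the replicates exchanged, the 2L window from 11000001 held 1 domain and the other 5 windows still held none. These windows were not empty of the mark, as they held 7 to 36 clusters under 10 kb. The fullest windows lay on the X, from 11000001 and from 13000001, with 11 domains each.

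The domains scored high among the clusters of their list. The score is the authors' value for each cluster, and differences in it behave as differences on a log2 scale. In replicate 1 the median score was 1.43 for domains and 0.80 for clusters under 10 kb. In replicate 2, at the same places, medians were 1.39 for domains and 0.83 for the 4888 narrower clusters that overlapped it. The differences of 0.63 and 0.56 are factors of 1.55 and 1.47 on the linear scale. The value of 0.56 leaves out narrower clusters without an overlap, so the differences rest on different sets of clusters. With the replicates exchanged, over all clusters under 10 kb of replicate 2, the difference was 0.64. Of the domains, 230 (43.0%, 38.9 to 47.2) scored in the highest 10% of the list, where 10.0% of all clusters lie. Only 14 (2.62%) scored below the list's median, where 50.0% of all clusters lie. Width and score are related across the list, and the rule on width therefore carries high scores with it.

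A wide domain was not always a high-scoring one. Across all clusters of replicate 1, Spearman's rho of width and score was 0.80, and across the clusters under 10 kb it was 0.78. Within the domains rho was 0.28 in replicate 1 and 0.29 for the scores of replicate 2 at the same places. Clusters share a library and neighbours are not independent, so these are descriptions across clusters. By width class, the median score in replicate 1 was 0.52 below 2000 bp, 0.74 from 2000 bp, 0.98 from 3000 bp and 1.21 from 5000 bp. Above the limit it was 1.36 from 10000 bp, 1.33 from 12000 bp, 1.47 from 15000 bp, 1.59 from 20000 bp and 1.62 from 30000 bp. Median scores thus differed more between the classes of narrow clusters than between those of domains. High scores were not limited to domains either, as 449 clusters under 10 kb (8.37%) scored above the median domain.

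Scores of domains agreed closely between the replicates, with a rho of 0.95 across the 535 domains and 0.86 across the narrower clusters. The difference, replicate 2 minus replicate 1, had an SD across regions of 0.10 for domains and 0.17 for clusters under 10 kb, around medians of -0.02 and -0.03.

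**Figure D2:**
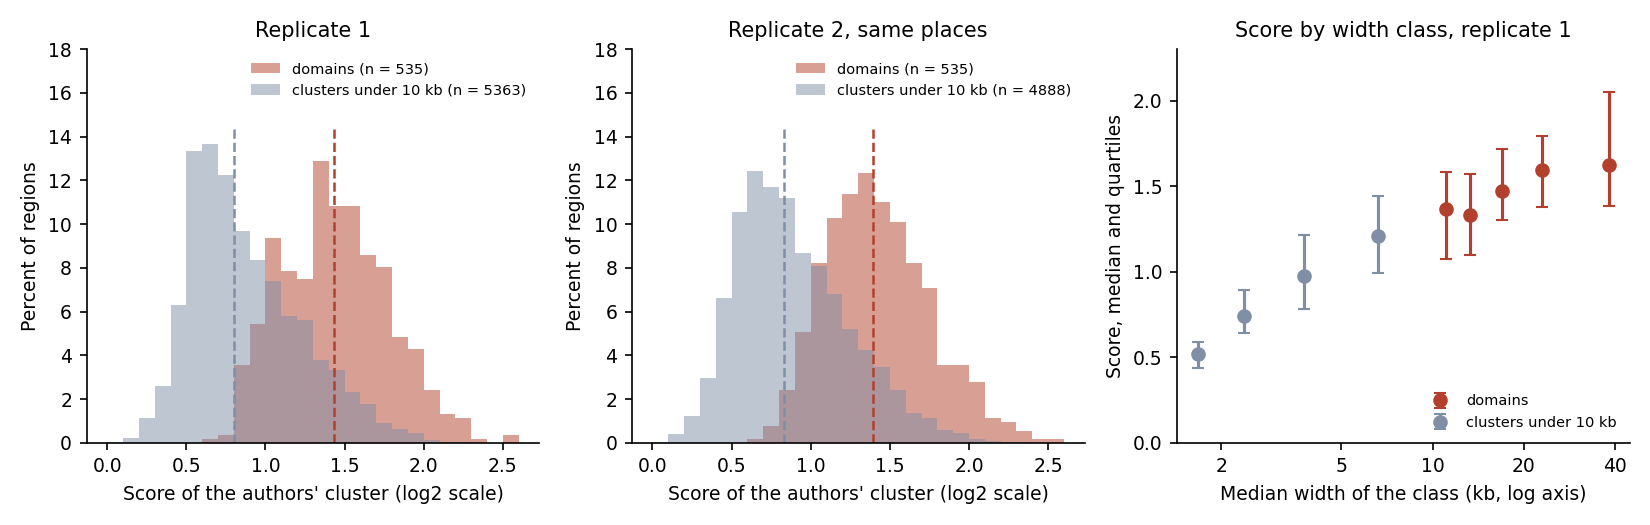
Share of regions (y axis, percent) by score of the authors' cluster (x axis, log2 scale) in replicate 1 (left) and at the same places in replicate 2 (middle), with dashed lines at the medians, and median score with quartiles by width class in replicate 1 (right, log width axis). Domains centre on 1.43 and 1.39 and clusters under 10 kb on 0.80 and 0.83, and the medians by class run from 0.52 to 1.21 below 10000 bp and from 1.33 to 1.62 above it.

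Domains on the X scored higher than those on the autosome arms. Their median was 1.56 on the X and 1.39 on the autosome arms in replicate 1, and 1.57 and 1.34 in replicate 2, a difference of 0.20 ± 0.04 (SD, n = 2). Clusters under 10 kb showed a difference of the same size, 0.21 ± 0.06, with medians of 0.94 and 0.77 in replicate 1 and 1.04 and 0.79 in replicate 2. For these narrower clusters the replicate 2 medians cover only those that overlapped replicate 2. Their SD thus reflects a change in the set of clusters as well as the replicate. The score difference of the X was thus as large in narrow clusters as in domains. Among the autosome arms, the median of domains in replicate 1 ran from 1.38 on 2R to 1.41 on 3L. The 6 domains of chromosome 4 scored 0.84 to 1.68, with a median of 1.14 in replicate 1 and 1.27 in replicate 2. There the 61 narrower clusters had a median of 0.98 in replicate 1, and those that overlapped replicate 2 had 1.00 in it. Domains of chromosome 4 thus lay closer to its narrow clusters than domains of the X or the autosome arms lay to theirs.

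The highest scores stood over domains of very different width. On 2R a domain of 20612 bp from 5428593 to 5449204 scored 2.54 in replicate 1 and 2.40 in replicate 2, where the cluster went on for a further 7165 bp. On 3R a domain of 27015 bp from 5901794 to 5928808 scored 2.51 and 2.53, with edges 47 and 198 bp apart between the replicates. Those 2 domains, and one of 28934 bp on the X from 3564785 to 3593718 (scores 2.39 and 2.43), were single clusters in both lists. The domain on the X from 6742049 to 6774752, 32704 bp wide, scored 2.29 and 2.24 and had a break of 113 bp in replicate 2. The narrowest of the 5 highest, 13230 bp on the X from 11705646 to 11718875, scored 2.28 and 2.37. It lay 515 bp from another domain, and the replicate-set list joined the pair into 1 cluster of 25908 bp. Over the replicates the 3R domain had a mean of 2.52 ± 0.01 and the X domain from 6742049 one of 2.27 ± 0.03 (SD, n = 2), a difference larger than that spread. The 3R domain and the 2R domain, at 2.47 ± 0.10, differed by less than the spread of the 2R domain.

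At the low end, 3 of the 5 lowest-scoring domains lay on 3R. From 1142817 to 1152859 a domain of 10043 bp scored 0.67 in replicate 1 and 0.78 in replicate 2, where it was 2 clusters. From 22636984 to 22650999 a domain of 14016 bp scored 0.73 and 0.72, and the clusters of replicate 2 there spanned 24003 bp. From 6411272 to 6424863 a domain of 13592 bp scored 0.79 and 0.86. The others were on 2L from 3038792 to 3049329 (0.81 and 0.67, in 3 pieces in replicate 2) and on 3L from 7167346 to 7179226 (0.83 and 0.95, in 2 pieces). All 5 were under 15000 bp wide, and 4 of them were broken in replicate 2. Over all 535 domains, 124 (23.2%) were broken, 166 were under 12000 bp wide and 129 from 12000 to under 15000 bp.

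The widest domains were also long in replicate 2, though often not in 1 piece. The widest, on 2R from 6409414 to 6473835, measured 64422 bp in replicate 1. In replicate 2 it was 3 clusters spanning 63960 bp, with outer edges 39 and 501 bp away and the widest break at 1775 bp. The domain on the X from 12606642 to 12665187 (58546 bp) was 2 clusters spanning 58742 bp, with a break of 593 bp. The domain on 3R from 12030023 to 12087601 (57579 bp) was 2 clusters spanning 57615 bp, with edges 33 and 3 bp apart and a break of 1928 bp. Domains of 56941 bp on 2R from 14189988 to 14246928 and of 56330 bp on 3L from 10313312 to 10369641 were single clusters of 56549 and 56443 bp in replicate 2. Counted by outer edges, each of these 5 differed by less than 1000 bp in extent between the replicates. The mean scores of the 5 ran from 1.37 ± 0.01 on 2R to 2.28 ± 0.03 on the X (SD, n = 2). On 2L the widest domain, 41690 bp from 12470270 to 12511959, lay 827 bp from the domain of 13573 bp that begins at 12455870. In replicate 2 both were part of a cluster of 57209 bp. On chromosome 4 the widest domain ran from 1000144 to 1021412 (21269 bp) and scored 0.84 and 0.97, the lowest of that chromosome's domains in both replicates.

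Neighbouring domains were a median of 109078.5 bp apart in replicate 1 and 106618 bp with the replicates exchanged, over 528 gaps in replicate 1. The spread was wide, with quartiles of 27640 and 288557 bp and a range of 5 to 2028615 bp. On the X the median gap was 72227 bp and on the autosome arms 122029.5 bp, and with the replicates exchanged it was 65042 and 119886 bp. Gaps of at most 50 kb made up 58 of 133 gaps on the X (43.6%, 35.5 to 52.1) and 133 of 390 on the autosome arms (34.1%, 29.6 to 38.9). The higher density of domains on the X goes with these shorter gaps. The most distant domains were on 2L from 10745134 to 10762418, on 3L from 22813173 to 22836766 and on 3L from 1575873 to 1595545, at 957906, 903632 and 751754 bp from the next domain. They scored 1.62, 1.73 and 1.41 in replicate 1 and 1.60, 1.79 and 1.32 in replicate 2. Distance from other domains was thus not matched by a low score in these 3.

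**Figure D3:**
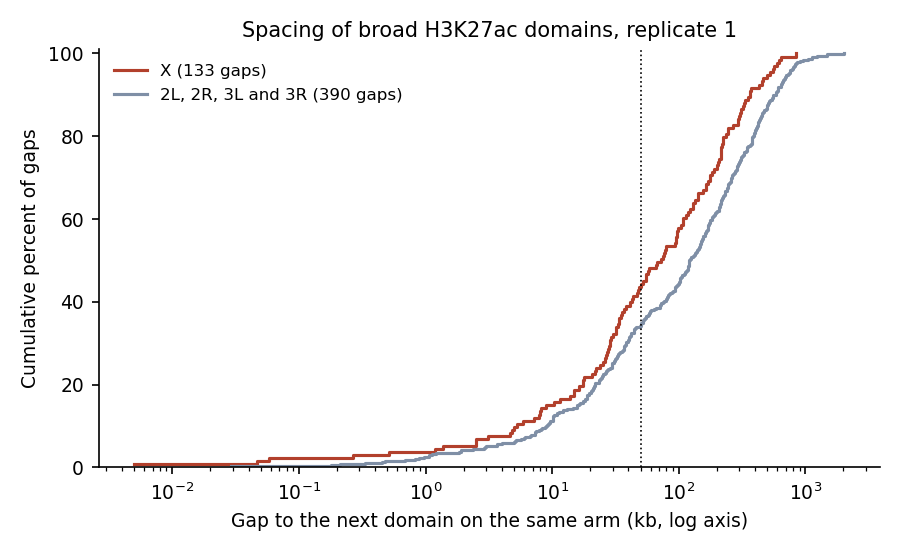
Cumulative share of gaps between neighbouring domains of replicate 1 (y axis, percent) by gap length (x axis, kb, log axis), for the X and for the 4 autosome arms together; the dotted line marks 50 kb. At that line the curves stand at 43.6% on the X and 34.1% on the autosome arms.

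Domains lay in stretches rich in other clusters. The median distance from a domain to the nearest cluster of any width was 1764 ± 97.6 bp (SD, n = 2), against 2249.5 ± 48.8 bp for clusters under 10 kb. In the 50000 bp on either side of a domain, a median of 33.9% ± 0.28 of bases lay under other clusters, and 27.5% ± 0.06 on either side of narrower clusters. Within 10000 bp the values were 31.4% ± 0.68 and 25.7% ± 0.26. Each of these differences was larger than the spread between replicates. By width class in replicate 1, the median distance was already 1988.5 bp from 5000 to under 10000 bp. Above the limit it was 1817 bp from 10000 bp, 1477 bp from 12000 bp and 1628.5 bp from 15000 bp. From 20000 bp it was 2167 bp, and 827 bp for the 17 domains from 30000 bp. The short distance was thus not particular to domains and was not found in each class of them. In replicate 1, 108 domains (20.2%, 17.0 to 23.8) had a cluster within 500 bp, against 17.5% of all clusters, so this share was near that of the list. A nearest cluster 10000 bp or more away was found for 7.10% of domains and 14.8% of narrower clusters. The next cluster along the arm was itself a domain for 114 of 1069 neighbours of domains (10.7%, 8.95 to 12.7), against 9.08% over all clusters. By arm, this share for neighbours of domains and of narrower clusters was 12.7% and 12.4% on the X, 8.24% and 8.34% on 2L, and 12% and 6.95% on 2R. It was 9.80% and 8.79% on 3L and 9.68% and 8.87% on 3R. The difference on 2R was the largest of these 5, and that on 2L went the other way.

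When domains no more than 50 kb apart were joined, 320 (59.8%, 55.6 to 63.9) fell into 126 groups and 215 stood alone. There were 80 pairs, 31 groups of 3, 10 of 4, 4 of 5 and 1 of 7. The share in groups was 68.7% on the X. Of the autosome arms, 2R had 62.7%, 2L 58.8%, 3L 57.8% and 3R 50.0% of its domains in groups, and 5 of the 6 domains of chromosome 4 were in groups. Of the 15 groups with at least 4 domains, the X had 8, 3R had 3, and 2L and 2R had 2 each, while 3L had 0. With a fixed joining gap the share in groups rises with the density of domains. The share that density alone would give was not computed. The higher values of the X are thus not set apart from its higher density and shorter gaps. A group spanned a median of 61613.5 bp, of which a median of 60.8% was domain sequence. Domains in groups and those alone had median scores of 1.45 and 1.40 in replicate 1 and median widths of 13832 and 14221 bp.

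The largest group lay on 3R from 19690245 to 19933191, with 7 domains over 242947 bp. Clusters of any width covered 71.0% of that span in replicate 1 and 70.0% in replicate 2, and 12 clusters under 10 kb lay between its domains. Its domains were 10788 to 24733 bp wide, and in replicate 1 each scored between 0.84 and 1.37, below the median domain. In replicate 2 the domain of 15535 bp at the start of the group was part of a cluster of 29668 bp, and the domain of 10788 bp was 3 clusters, none wider than 5364 bp. The other 5 domains were each a single cluster in replicate 2, and for the domain from 19828691 that cluster was wider, at 16851 bp. The replicate-set list joined the last pair, 1912 bp apart, into a cluster of 40459 bp. It also joined the domains from 19828691 and 19847910, 7904 bp apart, into a cluster of 29898 bp.

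The next group by span, also on 3R, ran from 5707567 to 5928808 and held 5 domains over 221242 bp. Its scores were far apart, with 2.51 in replicate 1 for the domain from 5901794, 2.05 for the domain of 33988 bp from 5751777, and 1.04 for the domain from 5852917. In replicate 2 the same domains scored 2.53, 1.98 and 1.07. A gap of 40188 bp without any cluster in replicate 1 separated the domain that ends at 5812728 from the one that begins at 5852917. The group of 5 on the X from 7942270 to 8132259 spanned 189990 bp, with clusters over 67.5% of it in replicate 1 and 71.4% in replicate 2. Its domains were 11719 to 17388 bp wide and scored 1.14 to 1.87 in replicate 1. Scores within the 3R group of 5 thus lay farther apart than those within this X group.

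**Figure D4:**
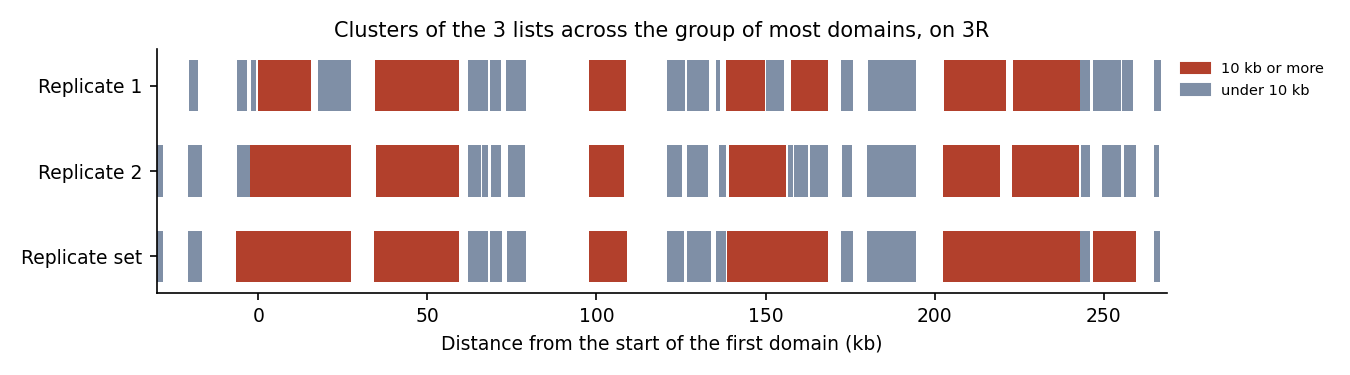
Clusters of replicate 1, replicate 2 and the replicate-set list across the 3R group of 7 domains (rows), by distance from the start of its first domain (x axis, kb); wide clusters are red and clusters under 10 kb grey. Most clusters lie at the same places in the lists, while stretches that are separate in replicate 1, such as the last pair of domains, are joined in the replicate-set list.

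Domain edges lay close together in the replicates. Over 1070 edges, the median distance from the edge in replicate 1 to the outer edge of the overlapping clusters of replicate 2 was 218 bp, with quartiles of 73 and 615 bp. For clusters under 10 kb that overlapped replicate 2 it was 149 bp. As a share of width the median edge distance was 1.43% for domains and 4.52% for narrower clusters. Width chose the domains and divides this share, so a lower share comes with the rule. In bp, domain edges lay farther apart than those of narrower clusters. Starts and ends of domains did not stand apart, at 216 and 223 bp. Of the domain edges, 348 (32.5%, 29.8 to 35.4) lay within 100 bp of each other and 760 (71.0%, 68.2 to 73.7) within 500 bp, against 38.9% and 78.0% over all clusters with an overlap. The median outward shift of replicate 2 was 9 bp. The domain on 3R from 9876028 to 9898249, 22222 bp wide, had edges 7 and 14 bp apart. On the X, the edges of the domain from 649204 to 660688 (11485 bp) were 4 and 27 bp apart. The domain on 3R from 9619954 to 9633023 (13070 bp) had edges 16 and 17 bp apart, although it was broken by 1023 bp in replicate 2.

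Large edge distances were mostly joins to a neighbouring cluster. Edges more than 1000 bp apart made up 163 of 1070 (15.2%, 13.2 to 17.5), against 11.8% over all clusters with an overlap. In 128 of them replicate 2 reached farther out, and in 91 of these its cluster ran on over the next cluster of replicate 1. Over all 103 domain edges where replicate 2 reached the next cluster, the bridged gap had a median of 322 bp. All 51 domain edges more than 5000 bp apart were joins of this kind. Clusters under 10 kb behaved alike, with such joins at 222 of 224 edges more than 5000 bp apart. Of their 893 edges more than 1000 bp apart with replicate 2 farther out, 520 were joins. The joins were thus not particular to domains. With clusters lying so close together, an edge that far out will mostly reach the next cluster. Where no such join was made, the median edge distance was 186 bp for domains and 133 bp for clusters under 10 kb. The 5 domains with the largest edge distances each lay 29 to 827 bp from another domain in replicate 1. On 2L the domain from 12455870 to 12469442 had its end 43247 bp farther out in replicate 2. On 3L the end of the domain from 7817314 to 7838213 was 23406 bp farther out, where the next domain lay 29 bp away. The end of the X domain from 1286277 to 1308569 was 19272 bp farther out, where the next lay 47 bp away. On the X from 6997311 and on 3L from 17573887 the starts were 18518 and 18558 bp farther out. Across all domains, 9 clusters of replicate 2 each overlapped at least 2 domains, so that 18 domains shared a cluster of replicate 2 with another domain.

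**Figure D5:**
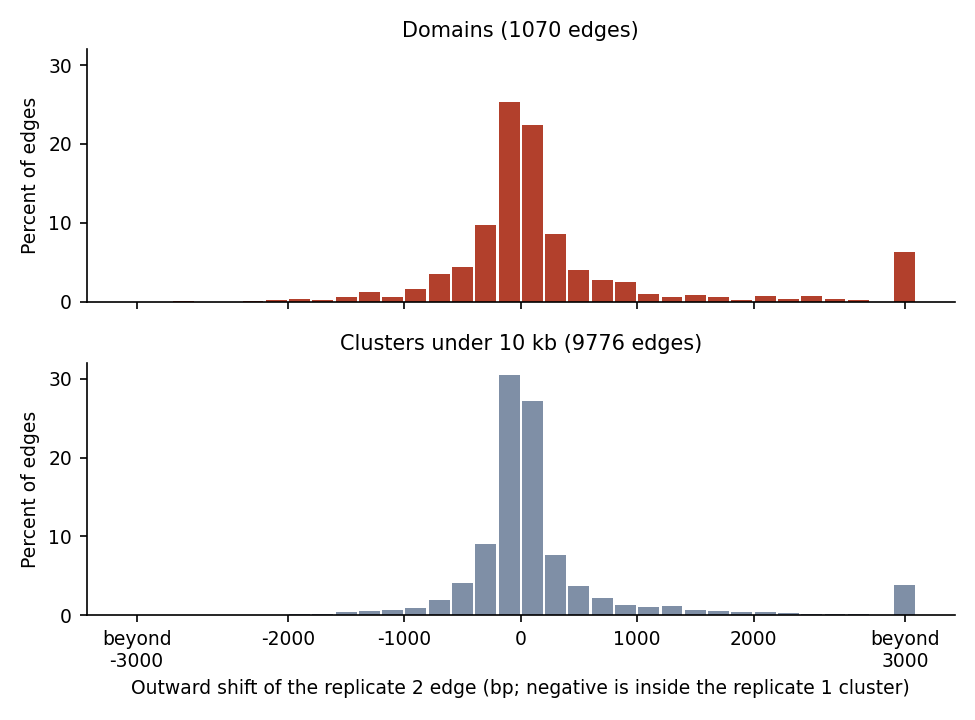
Share of edges (y axis, percent) by how far the replicate 2 edge lay outside the replicate 1 cluster (x axis, bp, bins of 200 bp with a last bin beyond 3000 bp), for domains (top) and clusters under 10 kb that overlapped replicate 2 (bottom). Both centre near 0, and 67 domain edges (6.26%) lay more than 3000 bp farther out with none as far inside. Outer edges of all overlapping clusters are compared, so a stretch that replicate 2 breaks counts as a break and not as an inward edge.

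Many domains were a single cluster in replicate 1 and several in replicate 2. In replicate 2, 124 domains (23.2%, 19.8 to 26.9) were overlapped by at least 2 clusters, against 6.66% of all clusters with an overlap. Of these, 104 had 2 clusters, 19 had 3 and 1 had 4. With the replicates exchanged the share was 21.7%. A long region offers more places for a break, and per Mb of width the domains had 16.7 breaks in replicate 2 and the clusters under 10 kb 13.6. With the replicates exchanged these were 15.5 and 11.3 per Mb. The values for narrower clusters pool all widths under 10 kb, and breaks per Mb were not computed by width class. An excess per length over the clusters nearest in width is thus not shown. From 5000 to under 10000 bp, 137 of 1100 clusters were broken, at a median width of 6618 bp. By width class, the share broken was 1.72% below 2000 bp, 1.76% from 2000 bp, 4.18% from 3000 bp and 12.5% from 5000 bp. Among domains it was 18.1% under 12000 bp, 24.0% from 12000 bp, 21.3% from 15000 bp, 28.7% from 20000 bp and 9 of 17 from 30000 bp. The share was thus already raised in the widest class of narrow clusters. On the X 40 of 134 domains (29.9%) were broken, and on the autosome arms 84 of 394 (21.3%).

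The breaks were short. Taking the widest break of each broken domain, the median was 401 bp, the quartiles were 200.5 and 848.75 bp and the range was 4 to 1956 bp. In 71 of 124 (57.3%) it was at most 500 bp. Broken domains scored lower than whole ones, with medians of 1.28 and 1.46 in replicate 1 and 1.23 and 1.44 in replicate 2. They were also wider, with medians of 15153.5 and 13760 bp. The domain with the most pieces lay on 2R from 9886553 to 9934525 (47973 bp), with 4 clusters of replicate 2, the widest 38385 bp, and no break above 596 bp. It scored 1.33 in replicate 1 and 1.29 in replicate 2. On 3R from 8103265 to 8128914 a domain of 25650 bp was 3 clusters with a break of 1956 bp, the longest in any domain, and scored 0.98 and 0.84. On 3L, domains from 5163126 to 5185401 (22276 bp) and from 11647483 to 11668838 (21356 bp) were also 3 clusters, and their widest breaks were 1091 and 973 bp.

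Most domains were also broad in replicate 2. There, 393 domains (73.5%) were a single cluster of at least 10 kb, and 68 (12.7%) were broken but kept a piece of at least 10 kb. A further 56 (10.5%) were broken into pieces all under 10 kb, although these domains measured 10043 to 20917 bp in replicate 1. The last 18 (3.36%) were a single cluster just under the limit, of 8225 bp or more. The span between outer edges was within 10% of the width in replicate 1 for 422 domains (78.9%, 75.2 to 82.1). It was more than 1.5 times the width for 30 and under 0.9 times for 18, with a range of 0.74 to 4.21 times. Of the 530 broad clusters of replicate 2, 462 (87.2%) overlapped a domain of replicate 1. At 43 of the others replicate 1 had at least 2 clusters, and none of the others was wider than 21897 bp. A single cluster of replicate 2 of at least 10 kb failed the overlap, on the X from 7540859 to 7552511, with 42.2% of its 11653 bp under clusters of replicate 1.

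The authors also deposited a replicate-set list, a single list for both replicates. In it 529 domains (98.9%) were overlapped by 1 cluster and 6 by 2, a share near the 99.2% over all clusters of replicate 1. Its clusters were 0.64 to 4.27 times as wide as the domain in replicate 1, with a median of 1.06 times. They were at least 1.5 times as wide for 81 domains (15.1%), and under 10 kb wide for 3. The list had 738 clusters of at least 10 kb, of which 494 held 1 domain and 19 held 2. The pairs joined in this way had been 5 to 8276 bp apart in replicate 1, with a median of 515 bp. The remaining 225 held no domain and were near the limit, with a median width of 11769 bp. At 156 of these replicate 1 had at least 2 clusters, and at 69 it had 1, all under 10 kb. This list has no replicate, so its values carry no spread.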

How the data were processed

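H3K27ac ChIP-seq was made from fly head nuclei in 2 ChIP and 2 input libraries. Per the submitters' processing notes the aligner was Bowtie 0.12.7, and the file headers name FlyBase release 5 as the genome build. The cluster caller, its thresholds, the score formula and the way the replicate-set list was made are not stated in any label or header read here. The authors deposited a score for each cluster, used here to describe clusters within a list. Score differences raised to base 2 gave ratios of whole numbers (denominators up to 20000, relative tolerance 1e-12) for 100% and 99.97% of clusters in the replicate lists. With base e or 10 this held for under 1%.

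Domains were clusters of replicate 1 of at least 10 kb with 50% of bases in replicate 2. The score of replicate 2 was weighted by shared bases. Edges were outer edges of all overlapping clusters. The members, width classes and limits were chosen with earlier results of these data known. Regions were named by fixed ranks of width, score, pieces, edges and distance. The 1 depleted entry of the replicate-set list was left out. Genes and sequences at the domains were not analysed here. The interval code was tested on simulated data. Computation used pandas 2.3.3 and numpy 2.4.6 under Python 3.11.15, with intervals from scipy 1.17.1 and plots from matplotlib 3.10.9.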

Additional observations from a re-analysis of the deposited data

How the results depend on the processing

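Of 82 alternative values, 34 moved by less than the spread between replicates or, for counts, by at most 1.5 times, and 48 moved by more. None changed sign, but only the score difference could, since the other values cannot be negative. Leaving out replicate 2 returned the main values, because the overlap had removed no cluster of replicate 1. Those values are counted among the 34 and carry no information on robustness. That spread is the SD of 2 nearly equal values, so small changes pass it. The limit for counts is wide. Against 535 domains, 797 with a limit of 8 kb and 611 after merging clusters within 500 bp are among the 34. So are the 738 wide clusters of the replicate-set list. A limit of 15 kb gave 240 domains, 18.5% of covered bases, an X ratio of 1.80, a score difference of 0.70, a gap between domains of 322772 bp, 35% in groups, an edge distance of 213 bp, 26.2% broken and 97.8% of bases shared. A limit of 8 kb gave 39.8% of covered bases, a score difference of 0.60, a gap of 56212.5 bp, 71.4% in groups, 21.0% broken and 96.7% shared. Merging clusters within 500 bp, which removes short gaps, gave 36.8% of covered bases, an X ratio of 1.39, a score difference of 0.57, gaps of 93892 bp between domains and 2464 bp to the nearest cluster, 64.3% in groups, an edge distance of 210.5 bp, 18.3% broken and 96.4% shared. With the replicates exchanged the values were 30.7%, 1.56, 0.64, 106618 bp, 1833 bp, 60.0%, 225 bp, 21.7% and 97.0%, in the same order. Leaving out a replicate gave 531 to 535 domains, 30.8% to 31.4% of covered bases, an X ratio of 1.47 to 1.57, a score difference of 0.63 to 0.64, gaps of 106397 to 109078.5 bp and 1695 to 1834 bp, and 59.8% to 60.5% in groups. The share in groups was 60.1% with 80% overlap, 59.7% on the major arms alone, 34.4% with a joining gap of 20 kb and 71.4% with 100 kb. The edge distance was 223.5 bp on the major arms alone and 274.5 bp for the best-matching cluster alone. Counting only pieces that share 500 bp gave 21.9% broken. Against clusters of 5 kb to under 10 kb the score difference was 0.22. Alternatives chosen after seeing the data were the replicate-set list, with an X ratio of 1.55 and 738 wide clusters, and leaving out 2 Mb at the centromere ends, with an X ratio of 1.49. Except where the construction shows it, the cause was not tested. No paired analysis was possible because the inputs carry the same replicate numbers but are present only as background inside the deposited calls. Edge, break and shared-base values need both lists and were not computed with a replicate left out. Read depth is unknown and its effect on widths was not tested.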
